A study of Mus musculus with 16 samples.

Results

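The 10 genes described here encode calcium/calmodulin-dependent kinases and the proteins that regulate them. They were chosen by symbol, as the rows of a gene count table whose Ensembl IDs carry the names Camk2a, Camk2b, Camk2d, Camk2g, Camk2n1, Camk2n2, Camk4, Camkk1, Camkk2 and Camkv. All 10 were found among 55335 genes, and all 10 were among the 19479 genes that passed the filter on low counts. The material was total RNA, depleted of ribosomal RNA, from primary cultures of perinatal mouse forebrain neurons. There were 4 groups of 4 libraries, and every group, the control included, had been transduced with a lentiviral vector. The empty vector group (Empty_Vector in the labels) carried no hairpin. The unmutated hairpin group (shRNA) carried a short hairpin RNA, and the 2-mutation (shRNA_2bp) and 5-mutation (shRNA_5bp) groups carried that hairpin with 2 or 5 point mutations. The labels give no strain, culture age, promoter or hairpin target, so the targeted transcript was not checked here. Nor do they state that replicates were separate cultures, and p-values here reflect the scatter among these libraries, which may be technical. A library held between 33795369 and 49824569 counts, and each of the 10 genes had between 961 and 38852 counts in every library.

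Calcium that enters a neuron binds calmodulin, and calcium-loaded calmodulin switches on a family of serine/threonine kinases. CaMKII, built from the products of Camk2a, Camk2b, Camk2d and Camk2g, forms a large holoenzyme that can phosphorylate itself and stay active after calcium has fallen; in forebrain neurons it is abundant at synapses and is known for its part in synaptic plasticity. The small proteins made by Camk2n1 and Camk2n2 bind and inhibit CaMKII. In a separate cascade, the kinases of Camkk1 and Camkk2 phosphorylate and activate other calmodulin-dependent kinases, among them the nuclear kinase of Camk4, which acts on the transcription factor CREB. Camkv encodes a kinase-like, vesicle-associated protein of neurons that is regarded as catalytically inactive.

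Relative to empty vector, the 10 genes moved down or did not pass the test, and none rose. With each hairpin 8 of the 10 were called lower (edgeR, quasi-likelihood; adjusted p below 0.05), although the 8 were not the same genes. The share of all tested genes called lower was 19.5% for the unmutated hairpin and 30.8% and 26.5% for the 2-mutation and 5-mutation hairpins; the shares called in either direction were 40.3%, 63.3% and 54.9%. The median log2 fold change of the 10 genes was −0.25, −0.52 and −0.32 in that order, beside medians of 0.01, −0.01 and 0.03 over all genes tested. The shares of all genes called higher, where none of the 10 was, were 20.8%, 32.5% and 28.4%. Libraries did not overlap the empty vector libraries for 8, 8 and 7 of the 10 genes, and for 38.4%, 60.1% and 48.1% of all genes; in all of these cases the 10 genes were below, as were 18.7%, 28.6% and 23.7% of all genes. Camk2a, Camk2d, Camk2n1 and Camk4 were called lower with all 3 hairpins, as were 5.85% of all genes tested. The 3 comparisons share the empty vector libraries and are not independent of each other. The coefficient of variation of the 10 genes within a group of libraries was 1.48% to 8.35%.

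**Figure D1:**
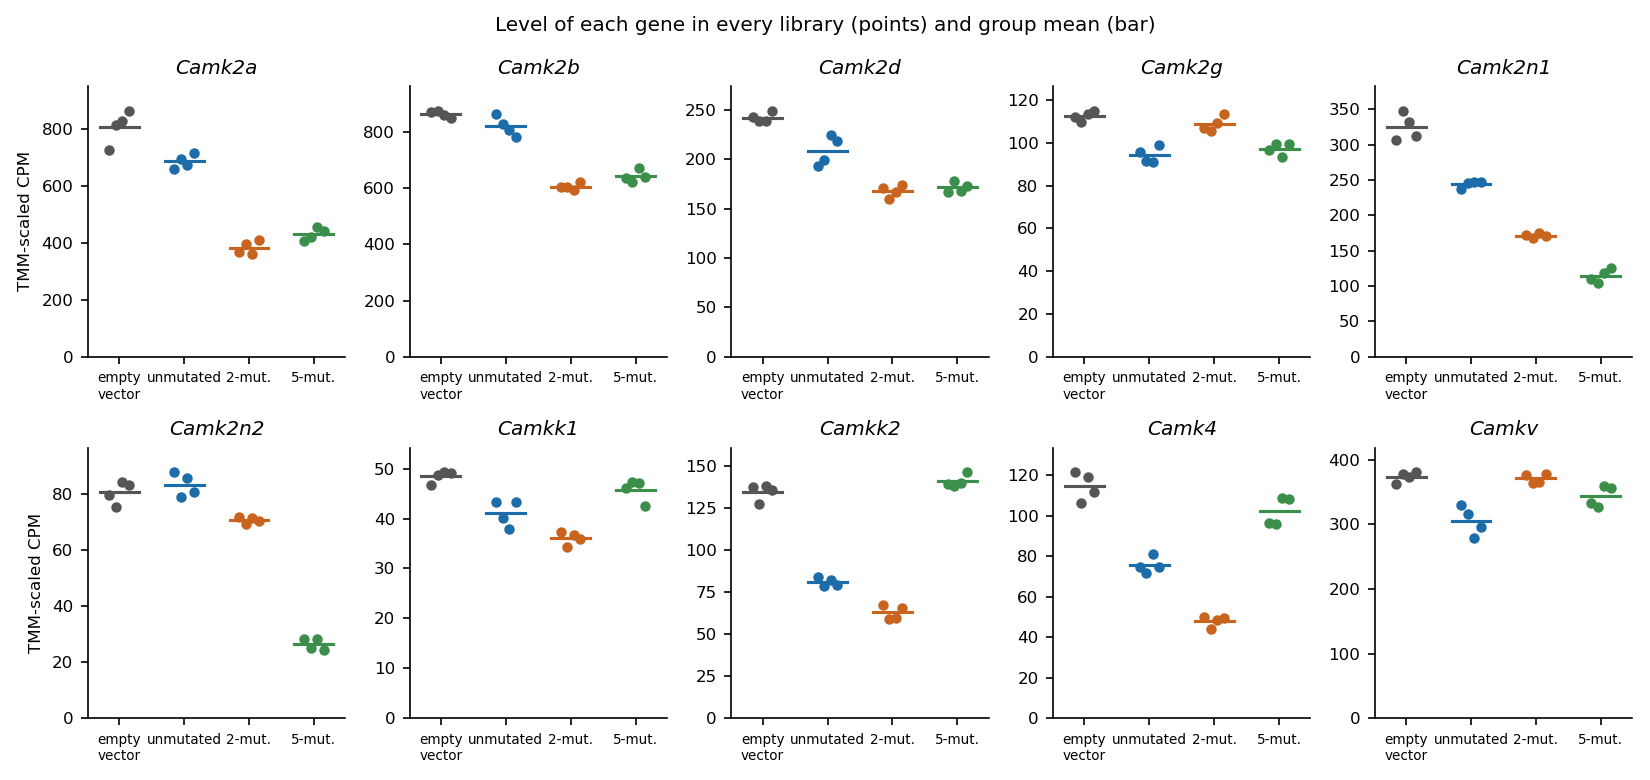
TMM-scaled CPM of each of the 10 genes (vertical axes from 0) in the 4 groups; each point is a library and each bar the mean of 4. Camk2n1 steps down from 325 to 114 CPM across the groups as drawn. Camk2n2 is far lower in the 5-mutation group (mean 26.5 CPM) than in the others (means 70.7 to 83.2 CPM). Camkk2 and Camk4 are low with the unmutated and 2-mutation hairpins.

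The alpha subunit gene Camk2a (ENSMUSG00000024617.16; GRCm38 chromosome 18, 60925618 to 60988152, plus strand), widely used as a gene of forebrain excitatory neurons, fell by 2.11-fold and 1.87-fold under the 2 mutated hairpins and by less under the unmutated one. It was measured at 724, 814, 827 and 864 CPM (counts normalized to library size with TMM factors) in the empty vector group and at 659, 694, 673 and 716 CPM with the unmutated hairpin. It was at 368, 395, 361 and 409 CPM with the 2-mutation hairpin and at 405, 421, 455 and 441 CPM with the 5-mutation hairpin. Every library of each hairpin lay below every empty vector library, and the libraries of the 2 mutated hairpins overlapped each other. The means were 807 ± 59.3, 686 ± 25.0, 383 ± 22.7 and 431 ± 22.2 CPM (SD, n = 4 each). Relative to the control, log2 fold changes were −0.24 ± 0.05 (SE; edgeR adjusted p = 0.00113) for the unmutated, −1.07 ± 0.05 (adjusted p = 1.06e-13) for the 2-mutation and −0.91 ± 0.05 (adjusted p = 3.36e-12) for the 5-mutation hairpin. Between the 2-mutation and 5-mutation groups the log2 difference was −0.17 (edgeR adjusted p = 0.00873).

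The beta subunit gene Camk2b (ENSMUSG00000057897.14; chromosome 11, 5969644 to 6066362, minus strand), whose product also ties the holoenzyme to actin, showed the same order of groups over a smaller range. It averaged 863 ± 12.8 CPM in controls (847 to 875 CPM) and 819.6 ± 35.9 CPM under the unmutated hairpin (779.7 to 865 CPM), against 605 ± 12.2 CPM (593 to 622 CPM) and 642 ± 19.9 CPM (623 to 669.7 CPM) under the 2-mutation and 5-mutation hairpins. The unmutated group overlapped the empty vector group and did not pass the test (log2 fold change −0.07 ± 0.04; adjusted p = 0.128). The 2-mutation and 5-mutation groups lay below it in every library, at log2 fold changes of −0.51 ± 0.04 (adjusted p = 8.82e-11) and −0.43 ± 0.04 (adjusted p = 2.82e-09).

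Camk2d (chromosome 3, 126596302 to 126846326, plus strand), the delta subunit gene that is also expressed outside the nervous system, fell from 243 ± 5.02 CPM to 209 ± 15.4, 168 ± 6.27 and 172 ± 5.22 CPM with the unmutated, 2-mutation and 5-mutation hairpins. All 12 hairpin libraries, at 159.5 to 225 CPM, lay below the lowest empty vector library at 238 CPM. The log2 fold changes were −0.21 ± 0.05, −0.53 ± 0.05 and −0.50 ± 0.05, with edgeR adjusted p of 0.000669, 1.22e-09 and 4.99e-09. Levels under the 2-mutation and 5-mutation hairpins overlapped and their difference did not pass (adjusted p = 0.571).

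The gamma subunit gene Camk2g (chromosome 14, 20734875 to 20794088, minus strand) had another order. It averaged 113 ± 2.25 CPM in controls; the unmutated hairpin gave 94.3 ± 3.83 CPM, the 2-mutation hairpin 109 ± 3.54 CPM and the 5-mutation hairpin 97.0 ± 2.79 CPM. It fell with the unmutated (log2 fold change −0.26 ± 0.04; edgeR adjusted p = 1.62e-05) and the 5-mutation hairpin (−0.21 ± 0.04; adjusted p = 7.24e-05). The 2-mutation libraries overlapped the empty vector libraries (−0.05 ± 0.04; adjusted p = 0.288, and adjusted p = 0.0396 when only those 8 libraries were fitted). Camk2g was higher with the 2-mutation than with the unmutated hairpin (adjusted p = 7.87e-05), whereas Camk2a, Camk2b and Camk2d were lower (1.79-fold, 1.35-fold and 1.24-fold; adjusted p = 3.23e-06 or less).

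Because the subunit genes did not fall equally, the make-up of the CaMKII transcripts differed between groups. The ratio of Camk2a to Camk2b counts, which needs no scaling between libraries, was 0.831, 0.930, 0.963 and 1.02 in control (empty vector) libraries and 0.762, 0.839, 0.834 and 0.918 in libraries of the unmutated hairpin. It was 0.611, 0.654, 0.609 and 0.658 with the 2-mutation and 0.637, 0.677, 0.680 and 0.688 with the 5-mutation hairpin. Each library of the 2 mutated hairpins had a lower ratio than each library of the other groups. By a 2-sided exact permutation test, both mutated hairpins differed from the empty vector and from the unmutated hairpin (p = 0.0286 in each of 4 pairs, the smallest that 4 against 4 libraries allow; adjusted p = 0.0429 over 6 pairs). The unmutated hairpin and empty vector did not pass by that exact test (p = 0.114, adjusted p = 0.114), nor did the 2 mutated hairpins (p = 0.0857, adjusted p = 0.103).

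Per kilobase of annotated exon sequence (all exons of a gene merged), Camk2a made up 46.7 ± 2.03% of the summed CaMKII level in controls (SD, n = 4); under the unmutated, 2-mutation and 5-mutation hairpins it made up 44.6 ± 1.52%, 36.1 ± 1.05% and 38.2 ± 0.868%. Camk2b made up 41.0 ± 1.76%, 43.7 ± 1.84%, 46.7 ± 0.637% and 46.7 ± 0.735%, and Camk2g 7.61 ± 0.234%, 7.16 ± 0.260%, 12.0 ± 0.345% and 10.1 ± 0.510%. The summed level of the 4 genes was 231 ± 7.18, 206 ± 2.02, 142 ± 4.66 and 151 ± 4.54 CPM per kilobase in the same order of groups. Shares depend on the length used: with the longest protein-coding transcript of each gene, Camk2a made up 36.0 ± 1.86% and Camk2b 47.6 ± 1.64% with the empty vector, and 26.8 ± 0.918% and 52.4 ± 0.488% with the 2-mutation hairpin.

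**Figure D2:**
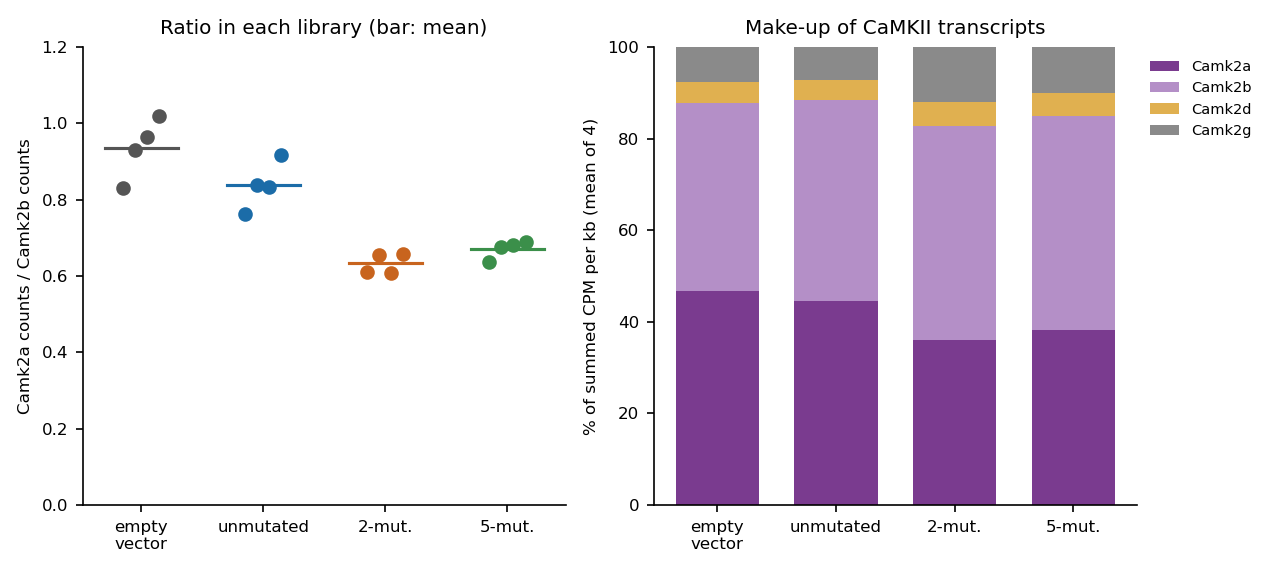
Left, the ratio of Camk2a to Camk2b counts in each library (points) with the group mean (bar). Right, the mean share of each CaMKII gene in the summed CPM per kilobase of merged exons. The mutated hairpins' libraries lie at ratios of 0.609 to 0.688, below the 0.762 to 1.02 of the other groups.

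The inhibitor gene Camk2n1 (ENSMUSG00000046447.3; chromosome 4, 138454314 to 138460123, plus strand) was lower with each hairpin and formed a ladder. Its level was 307, 348, 332 and 312 CPM in control (empty vector) libraries and 238, 246, 247 and 247 CPM in libraries of the unmutated hairpin. It was 172, 168, 174 and 170.5 CPM with the 2-mutation and 109.8, 104, 118 and 126 CPM with the 5-mutation hairpin. No library of any group overlapped a library of another. Against empty vector Camk2n1 fell with the unmutated hairpin by 1.33-fold (log2 fold change −0.41 ± 0.05; edgeR adjusted p = 7.67e-07), with the 2-mutation hairpin by 1.90-fold (−0.92 ± 0.05; adjusted p = 4.18e-13) and with the 5-mutation hairpin by 2.84-fold (−1.51 ± 0.05; adjusted p = 3.00e-16). The steps between hairpins passed as well: the unmutated group was above the 2-mutation group by 1.43-fold (adjusted p = 7.01e-09), and that group above the 5-mutation group by 0.58 on the log2 scale (adjusted p = 8.87e-10).

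Camk2n2 (ENSMUSG00000051146.2; chromosome 16, 20619215 to 20621287, minus strand), the second inhibitor gene, had the widest range of the 10 genes. Its level was 79.6, 75.3, 84.2 and 83.2 CPM in control libraries, 87.7, 78.9, 85.6 and 80.6 CPM with the unmutated hairpin and 71.8, 69.1, 71.4 and 70.4 CPM with the 2-mutation hairpin. With the 5-mutation hairpin it was 28.3, 25.0, 28.1 and 24.5 CPM, far below all other libraries. It fell with the 5-mutation hairpin by 3.04-fold (log2 fold change −1.61 ± 0.05; edgeR adjusted p = 1.78e-16) and with the 2-mutation hairpin by 1.14-fold (−0.19 ± 0.05; adjusted p = 0.00233). The unmutated hairpin did not pass (0.05 ± 0.05; 95% interval −0.05 to 0.14). The 5-mutation group was also lower than the unmutated group by 3.14-fold (adjusted p = 9.84e-17) and lower than the 2-mutation group by 2.67-fold (adjusted p = 4.18e-16). The 2 inhibitor genes, which make closely related proteins, thus both had their lowest level with the 5-mutation hairpin and differed in what the other hairpins did.

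The upstream sequence of Camk2n2 is shown because its transcript was the most changed of the 10. RefSeq promoters on GRCm38.p6 were at hand for 6 of the 10 genes (Camk2b, Camk2d, Camk2n2, Camkk1, Camkk2 and Camkv); Camk2a, Camk2g, Camk2n1 and Camk4 are named only. The 250 bases before the RefSeq start are chr16:20621279-20621528 on the minus strand, read 5′ to 3′. RefSeq starts can differ from the GENCODE gene bounds printed in this text. By those bounds the last bases of this window lie inside Camk2n2, which reaches to 20621287. The windows of Camk2b and Camk2d lie within their genes, and that of Camkv almost wholly so. Capitals mark GC boxes (GGGCGG or its complement CCGCCC) and CRE half-sites (CGTCA or its complement TGACG), the core letters of the element that CREB binds.
Camk2n2: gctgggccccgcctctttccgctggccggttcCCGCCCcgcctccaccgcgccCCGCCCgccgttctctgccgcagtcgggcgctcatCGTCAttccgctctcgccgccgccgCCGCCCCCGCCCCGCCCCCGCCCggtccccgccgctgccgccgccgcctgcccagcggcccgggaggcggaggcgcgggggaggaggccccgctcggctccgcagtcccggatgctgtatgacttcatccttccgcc
The window held 6 GC boxes, 2 of which overlap, and 1 CRE half-site, and 80.0% of its bases were G or C. Of 32851 RefSeq windows of the same length, 32.7% held a GC box and 17.8% a CRE half-site, and the median GC content was 52.4%. No base was shared between the 2 motifs, and none of the 6 genes' windows held the full element TGACGTCA, which 1.55% of all windows held. Such a match is a description of letters and not evidence that a factor binds.

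In the CaMKK cascade the order of groups was different from that of Camk2a, Camk2b and Camk2d, and from that of Camk2g. Levels were lowest with the 2-mutation hairpin, next lowest with the unmutated hairpin, and close to empty vector with the 5-mutation hairpin. Camkk2 (ENSMUSG00000029471.13; chromosome 5, 122731170 to 122779409, minus strand), whose kinase acts on CaMK1, CaMK4 and AMPK, was at 137, 128, 138 and 136 CPM in control (empty vector) libraries and at 84.0, 78.8, 82.2 and 79.0 CPM in libraries of the unmutated hairpin. It was at 67.4, 58.8, 59.6 and 65.5 CPM with the 2-mutation and at 139, 138, 139.8 and 146 CPM with the 5-mutation hairpin. Only the 5-mutation libraries overlapped the empty vector libraries. Camkk2 fell by 1.66-fold with the unmutated hairpin (log2 fold change −0.73 ± 0.05; edgeR adjusted p = 2.80e-11) and by 2.14-fold with the 2-mutation hairpin (−1.10 ± 0.05; adjusted p = 4.61e-15). It did not pass with the 5-mutation hairpin (0.06 ± 0.04; adjusted p = 0.242). The 5-mutation group was above the unmutated group by 1.74-fold (adjusted p = 1.62e-12) and above the 2-mutation group by 2.24-fold (adjusted p = 1.12e-15).

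Camk4 (ENSMUSG00000038128.7; chromosome 18, 32934931 to 33191228, plus strand), a substrate of both CaMKK enzymes, was at 122, 107, 119 and 112 CPM in control (empty vector) libraries and at 74.5, 71.7, 81.3 and 74.5 CPM in libraries of the unmutated hairpin. It was at 50.2, 44.1, 48.5 and 49.6 CPM with the 2-mutation and at 96.2, 96.1, 109 and 108 CPM with the 5-mutation hairpin. As for Camkk2, the 2-mutation group was lowest and the unmutated group next, while the 5-mutation libraries lay at and below the lower end of the empty vector range. Camk4 fell by 1.52-fold with the unmutated hairpin (−0.60 ± 0.06; edgeR adjusted p = 1.46e-08) and by 2.38-fold with the 2-mutation hairpin (−1.25 ± 0.06; adjusted p = 1.97e-14). The 5-mutation hairpin gave a small decrease (−0.17 ± 0.06; adjusted p = 0.0145), a call that was lost without the first empty vector library (adjusted p = 0.0564) or the first 5-mutation library (adjusted p = 0.0593). An antisense gene, 2310026I22Rik, shares 72 exon bases with Camk4 (2.21% of its exon length), and whether counting used strand was not given in the sources used here.

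Camkk1 (chromosome 11, 73019008 to 73042073, plus strand), the other activating kinase, moved in the same order by less. It was at 48.5 ± 1.23, 41.1 ± 2.61, 36.0 ± 1.35 and 45.8 ± 2.24 CPM with the empty vector and the unmutated, 2-mutation and 5-mutation hairpins. It fell by 1.18-fold with the unmutated (−0.24 ± 0.05; edgeR adjusted p = 0.000478) and by 1.34-fold with the 2-mutation hairpin (−0.43 ± 0.05; adjusted p = 1.03e-07). The 5-mutation libraries, at 42.5 to 47.4 CPM, overlapped the empty vector libraries, at 46.6 to 49.3 CPM, and did not pass (−0.08 ± 0.05; adjusted p = 0.166). The difference between the unmutated and 5-mutation groups passed (1.11-fold; adjusted p = 0.0101) but not without the third unmutated library (adjusted p = 0.0502).

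The upstream 250 bases of Camkk1 (chr11:73018738-73018987, plus strand) and Camkk2 (chr5:122779411-122779660, minus strand) are given because these genes moved in the same order over the groups; capitals mark the same motifs as above.
Camkk1: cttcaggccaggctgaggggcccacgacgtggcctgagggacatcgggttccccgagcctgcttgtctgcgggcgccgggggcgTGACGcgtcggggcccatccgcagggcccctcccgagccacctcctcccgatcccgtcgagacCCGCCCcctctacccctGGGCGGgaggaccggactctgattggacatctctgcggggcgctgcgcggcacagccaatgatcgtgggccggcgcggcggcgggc
Camkk2: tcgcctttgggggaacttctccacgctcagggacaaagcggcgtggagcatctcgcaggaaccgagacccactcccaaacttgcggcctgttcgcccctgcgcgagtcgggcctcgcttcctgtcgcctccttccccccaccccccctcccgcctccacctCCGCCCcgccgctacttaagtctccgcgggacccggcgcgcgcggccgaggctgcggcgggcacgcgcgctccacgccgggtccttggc
Camkk1 held 2 GC boxes and 1 CRE half-site and was 74.4% G and C. Camkk2 held 1 GC box and no match to the half-site, at 72.4% G and C. All 6 windows examined held at least 1 GC box, and between 67.6% and 80.0% of their bases were G or C. None held a TATA box (TATAAA or its complement), which 12.4% of all windows held.

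Camkv (chromosome 9, 107935674 to 107949691, plus strand) had the second smallest range of group means among the 10 genes. It averaged 374 ± 8.21 CPM in controls; the unmutated hairpin gave 305 ± 22.6 CPM, the 2-mutation hairpin 371 ± 6.86 CPM and the 5-mutation hairpin 345 ± 16.4 CPM. It fell with the unmutated hairpin (−0.29 ± 0.05; edgeR adjusted p = 2.82e-05), whose libraries, at 278 to 330.1 CPM, lay below all empty vector libraries, at 362 to 381 CPM. The 2-mutation libraries, at 365 to 377 CPM, overlapped the empty vector libraries (−0.01 ± 0.05; adjusted p = 0.884). The 5-mutation hairpin passed narrowly (−0.12 ± 0.05; adjusted p = 0.0384), and not with upper-quartile factors (adjusted p = 0.0757), with no filter on low counts (adjusted p = 0.0646) or without any of 5 single libraries (adjusted p 0.0637 to 0.108). Camkv and Camk2g were the 2 genes that did not pass with the 2-mutation hairpin, and both fell with the unmutated one.

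**Figure D3:**
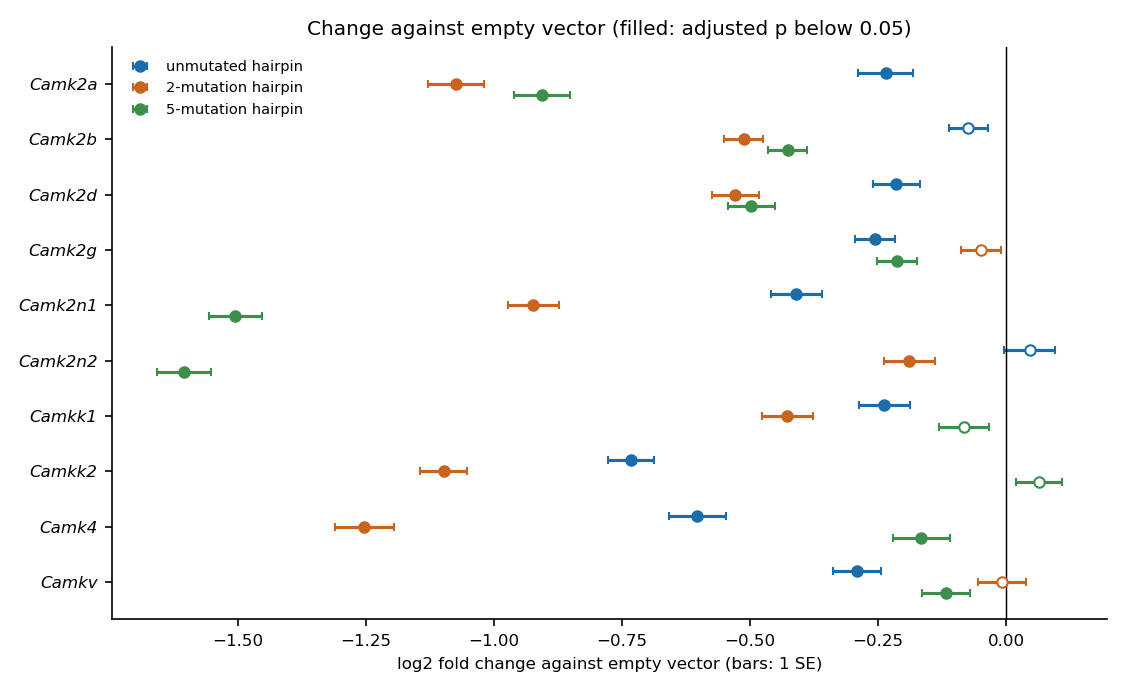
Log2 fold change of each gene against empty vector (horizontal axis) for the 3 hairpins; bars are 1 SE, and filled points passed an adjusted p below 0.05. Camk2n2 lies at −1.61 with the 5-mutation hairpin and within 0.19 of 0 with the others, whereas Camkk2 and Camk4 lie at −0.60 to −1.25 with the unmutated and 2-mutation hairpins.

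The hairpins were then compared with each other, to show which of these differences lay between a hairpin and its mutated forms. Between the unmutated and 2-mutation hairpins all 10 genes passed, 8 higher with the unmutated hairpin and 2 (Camk2g and Camkv) lower; 62.7% of all genes passed this comparison, 31.2% higher and 31.5% lower. For each of the 10 the 4 libraries of the groups did not overlap, as for 59.3% of all genes (30.3% with the unmutated hairpin below). Between the unmutated and 5-mutation hairpins 9 of 10 passed, 5 higher and 4 lower with the unmutated hairpin, beside 55.3% of all genes (26.8% higher, 28.5% lower). Libraries did not overlap for 7 of the 10 and for 46.7% of all genes, 23.8% with the unmutated hairpin below. Of the CaMKII genes and their inhibitors, Camk2a, Camk2b, Camk2d, Camk2n1 and Camk2n2 were the 5 higher, and Camkk1, Camkk2, Camk4 and Camkv the 4 lower. Camk2g, the remaining CaMKII gene, did not pass (log2 difference −0.04, edgeR adjusted p = 0.384). Between the 2-mutation and 5-mutation hairpins 8 of 10 passed, beside 65.9% of all genes (32.3% higher, 33.6% lower). Libraries did not overlap for 8 of the 10 and for 58.9% of all genes, 29% with the 2-mutation hairpin below. Camk2g, Camk2n1, Camk2n2 and Camkv were higher with the 2-mutation hairpin, and Camk2a, Camkk1, Camkk2 and Camk4 lower; the call for Camkv (1.08-fold; adjusted p = 0.0464) was lost in 13 of 24 refits. Camk2b did not pass (log2 difference −0.09 ± 0.04; adjusted p = 0.0533) but did in 8 of the 24 refits.

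Levels of different genes were compared with each other per kilobase. The count ratio of Camk2a to Camk2b above has no correction for length and was compared only between groups. Over merged exons, with the empty vector, Camk2a stood at 108 ± 7.94, Camkv at 99.3 ± 2.18 and Camk2b at 94.6 ± 1.40 CPM per kilobase. Camk2a ranged from 97.0 to 116 CPM per kilobase and overlapped Camkv, at 96.3 to 101 CPM per kilobase; Camk2b, at 92.8 to 95.9 CPM per kilobase, did not overlap either. Below them came Camk2n1 (73.1 ± 4.24), Camk2n2 (62.4 ± 3.12), Camk4 (35.2 ± 2.09), Camk2g (17.6 ± 0.352), Camkk1 (13.0 ± 0.331), Camkk2 (12.3 ± 0.441) and Camk2d (10.8 ± 0.223), all in CPM per kilobase. Of these neighbours only Camkk1 and Camkk2 overlapped. With the 2-mutation hairpin Camkv led at 98.7 ± 1.82 CPM per kilobase, followed by Camk2b at 66.3 ± 1.34, Camk2n2 at 54.7 ± 0.945 and Camk2a at 51.3 ± 3.04. Libraries of Camk2n2 (53.5 to 55.6 CPM per kilobase) and Camk2a (48.3 to 54.8 CPM per kilobase) overlapped in that group. With the 5-mutation hairpin Camk2n2, at 20.5 ± 1.56 CPM per kilobase, stood below Camk4 at 31.4 ± 2.19 and Camk2n1 at 25.8 ± 2.15. The order rests on the length used, since merged exons of Camk2d span 22493 bases and its longest coding transcript 5524: with the latter length Camk2b led at 214 ± 3.17 CPM per kilobase with the empty vector, before Camk2a at 162 ± 11.9, and Camk2d stood at 43.9 ± 0.908. By longest coding transcript Camk2b, not Camkv, also led with the 2-mutation hairpin, at 150 ± 3.04 CPM per kilobase. Camkv (113 ± 2.09), Camk2a (77.1 ± 4.57) and Camk2n2 (54.7 ± 0.945) followed in that order.

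The genes most like the 3 with the widest range were found by the Pearson correlation of log2 CPM over the 16 libraries. For Camk2n2 they were Gnao1, a G protein alpha subunit gene abundant in brain (r = 0.997; 891, 905, 765 and 269.7 CPM in the order empty vector, unmutated, 2-mutation and 5-mutation), and Strn4 (r = 0.996). For Camk2n1 they were the kinase gene Jak1 (r = 0.993; 267, 229, 179 and 146 CPM) and Lrrc8b, a volume-regulated anion channel subunit gene (r = 0.991). For Camk4 they were the fatty acid elongase gene Elovl6 (r = 0.989; 139, 89.2, 48.6 and 134 CPM) and Ctnna2, the neuronal alpha-catenin gene (r = 0.988). These values describe a ranking over 19479 genes, and the libraries fall into 4 groups, so r mostly follows the group means.

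Other genes of calcium/calmodulin signalling, taken from 6 lists, did not all follow the 10. Their counts stand beside the shares of all genes given above: 20.8%, 32.5% and 28.4% rose and 19.5%, 30.8% and 26.5% fell with the unmutated, 2-mutation and 5-mutation hairpins, with medians of 0.01, −0.01 and 0.03. Of 6 measured genes for calmodulin and small calmodulin-binding proteins, none rose and 2 fell with the unmutated hairpin, 3 rose and 2 fell with the 2-mutation hairpin, and 1 rose and 3 fell with the 5-mutation hairpin (medians −0.18, 0.10 and −0.19 on the log2 scale). Calm3, a calmodulin gene, fell with the unmutated (−0.34) and 5-mutation (−0.41) hairpins and rose with the 2-mutation hairpin (0.27). Nrgn, whose product neurogranin binds calmodulin in dendrites, fell with the 2-mutation (−1.22) and 5-mutation (−0.88) hairpins. Gap43, whose product binds calmodulin in growing axons, rose with both (0.37 and 0.62).

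Of 11 measured genes for other calmodulin-dependent kinases, 4 rose and 2 fell with the unmutated, 1 rose and 6 fell with the 2-mutation, and 7 rose and 3 fell with the 5-mutation hairpin (medians 0.12, −0.18 and 0.40). Camk1d, a target of the CaMKK enzymes, fell with every hairpin, from 149 ± 6.07 CPM to 72.3 ± 2.63, 99.6 ± 3.52 and 52.3 ± 3.66 CPM (log2 fold changes −1.04, −0.58 and −1.51). Camk1g rose with the 5-mutation hairpin from 47.0 ± 2.82 to 94.1 ± 6.67 CPM (edgeR adjusted p = 4.51e-11). It fell with the 2-mutation hairpin (log2 fold change −0.24) and did not pass with the unmutated one (0.12). Among 9 genes for the calcium-activated phosphatase calcineurin and its regulators, 2 rose and 5 fell with the unmutated, 4 rose and 3 fell with the 2-mutation, and none rose and 8 fell with the 5-mutation hairpin (medians −0.18, 0.17 and −0.47). The catalytic subunit gene Ppp3ca fell under each hairpin (log2 fold changes −0.18 for the unmutated hairpin, −0.62 for 2 mutations, −0.60 for 5). Rcan1, which encodes a calcineurin regulator, rose under the unmutated (0.39) and 2-mutation (0.46) hairpins and fell under the 5-mutation hairpin (−0.41). Of 8 genes for phosphatases that act on these kinases, 1 rose and 1 fell with the unmutated, 3 rose and 5 fell with the 2-mutation, and 1 rose and 4 fell with the 5-mutation hairpin (medians 0.00, −0.19 and −0.12). Ppm1f, which encodes a CaM kinase phosphatase, rose with the 2-mutation hairpin from 60.05 ± 1.94 to 154 ± 4.10 CPM (1.36 ± 0.04; edgeR adjusted p = 3.51e-17) and fell with the 5-mutation hairpin to 40.7 ± 1.92 CPM (−0.56 ± 0.04).

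Of 12 genes for synaptic substrates and anchors of CaMKII, 1 rose and 6 fell with the unmutated, 1 rose and 10 fell with the 2-mutation, and 2 rose and 9 fell with the 5-mutation hairpin (medians −0.14, −0.47 and −0.29). The AMPA receptor gene Gria1, whose product CaMKII phosphorylates, fell from 525 ± 30.7 to 257 ± 14.6 CPM with the unmutated and 246 ± 20.9 CPM with the 5-mutation hairpin (log2 fold changes −1.03 ± 0.06 and −1.09 ± 0.06). Grin2a, an NMDA receptor subunit gene, fell from 243 ± 13.0 to 97.7 ± 3.58 CPM with the 2-mutation hairpin, and Lrrc7, which encodes the CaMKII-binding scaffold densin, from 230.4 ± 9.80 to 113 ± 3.39 CPM. Of 14 genes for nuclear and AMPK targets of the CaMKK cascade, 4 rose and 4 fell with the unmutated, 4 rose and 9 fell with the 2-mutation, and 3 rose and 9 fell with the 5-mutation hairpin (medians 0.03, −0.43 and −0.22). The transcription factor gene Mef2c fell with each, from 935 ± 56.8 CPM to 537 ± 33.3, 323 ± 12.6 and 363 ± 20.8 CPM. The AMPK catalytic subunit gene Prkaa2 went opposite ways, falling with the unmutated (−0.66 ± 0.05) and rising with the 2-mutation hairpin (1.03 ± 0.04).

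**Figure D4:**
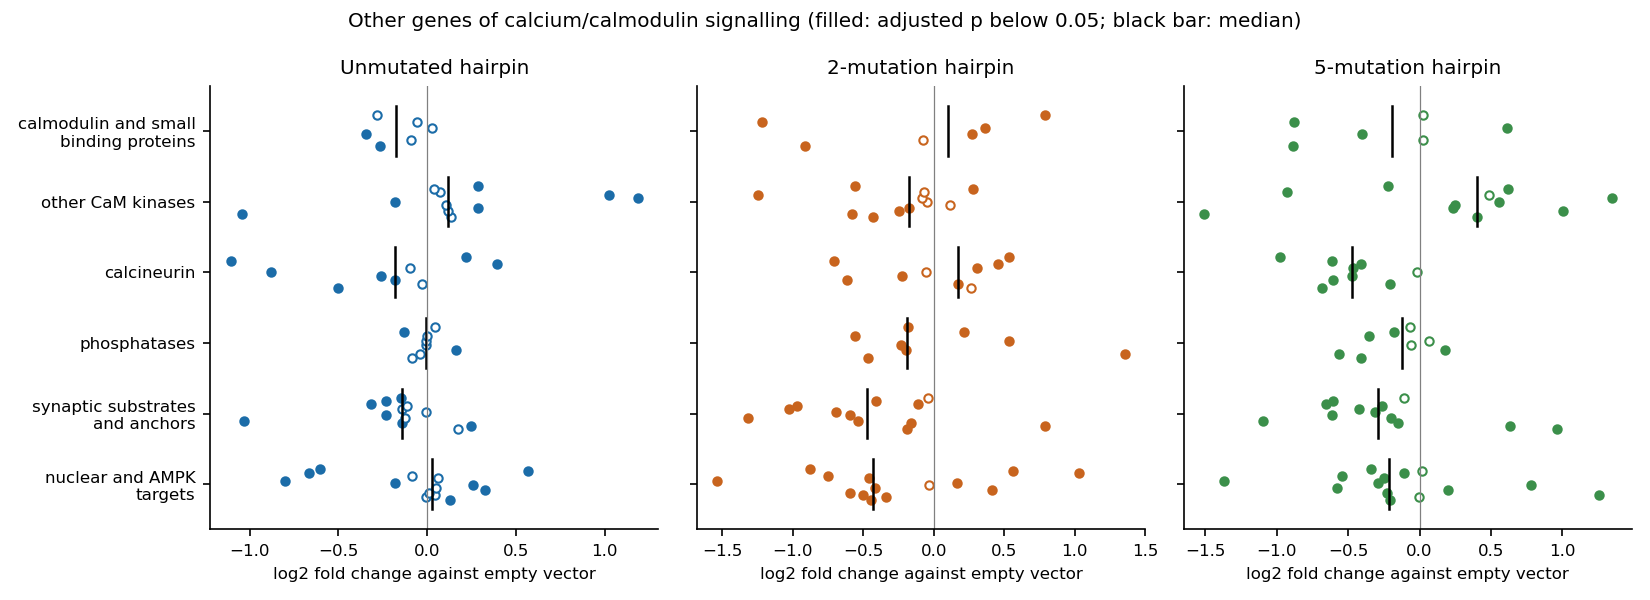
Log2 fold change against empty vector (horizontal axis) of each measured gene of the 6 lists, 1 panel for each hairpin; filled points passed an adjusted p below 0.05 and black bars are list medians. Synaptic substrates have a median of −0.47 with the 2-mutation hairpin and calcineurin genes a median of −0.47 with the 5-mutation hairpin.

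Markers of cell types moved between the groups as well, and in bulk RNA fewer cells of a type and less RNA per cell cannot be told apart. Marker calls stand beside the same shares of all genes. The summed level of 8 pan-neuronal markers was 6015 to 6358 CPM in controls and 5165 to 5352, 5752 to 6161 and 5758 to 6201 CPM under the unmutated, 2-mutation and 5-mutation hairpins. With the unmutated hairpin 6 of the 8 were called lower and none higher (median log2 fold change −0.42), with the 2-mutation hairpin 4 lower and 2 higher (−0.10), and with the 5-mutation hairpin 3 lower and 2 higher (0.04). The sum of 8 excitatory neuron markers was 1196 to 1271, 1174 to 1247, 1571 to 1655 and 695 to 754 CPM in that order. Of these 8 genes 4 rose and 2 fell with the unmutated, 5 rose and none fell with the 2-mutation, and 1 rose and 3 fell with the 5-mutation hairpin; the medians were 0.16, 0.29 and −0.04, so the lower sum of the 5-mutation group was not shared by the median gene. The sum of 9 inhibitory neuron markers was 735 to 828 CPM with the empty vector and 175 to 321, 227 to 329.9 and 304 to 412 CPM with the hairpins, and 8, 6 and 8 of the 9 were called lower (0, 2 and 0 higher; medians −1.49, −0.57 and −1.50). The sum of 8 astrocyte markers was 941 to 1156 CPM with the empty vector and 707 to 1028, 718 to 902 and 472 to 676 CPM with the hairpins; 2, 5 and 2 of the 8 were called lower and none higher (medians 0.13, −0.65 and −0.52). Progenitor and cycling-cell markers (8 genes) summed to 85.0 to 111 CPM with the empty vector and to 129 to 165, 222 to 327 and 57.3 to 111 CPM with the hairpins; 3, 3 and 4 of them rose and 0, 0 and 2 fell (medians 0.49, 0.38 and 0.55), so with the 5-mutation hairpin the median gene was higher while the sum was not. Oligodendrocyte lineage markers (6 of 8 measured) summed to 50.5 to 61.6 CPM with the empty vector and to 76.8 to 95.7, 39.5 to 45.0 and 76.7 to 94.0 CPM with the hairpins; 4, 0 and 1 of the 6 rose and 0, 2 and 2 fell (medians 0.57, −0.07 and −0.20). Microglial markers (3 of 8 measured) reached at most 3.78 CPM and endothelial markers (4 of 6 measured) at most 3.22 CPM. C1qa had no count in any library of the unmutated and 2-mutation groups, Itgam none with the 5-mutation and Cldn5 none with the 2-mutation hairpin. The 2 loci Gm26917 and Gm42418, known to collect ribosomal RNA reads, took 6.71% to 7.33% of counts with the empty vector and 8.49% to 9.21%, 12.3% to 12.8% and 9.16% to 10.4% with the hairpins. The part of these differences in the changes of the 10 genes was not tested, except that the members called against empty vector were 8, 8 and 8 also with both loci left out.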

How the data were processed

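The table the authors deposited holds raw counts per Ensembl gene for 16 libraries. It was made, per the submitters' processing notes, with STAR 2.7.2b and featureCounts on GRCm38.p6, after bcl2fastq (2.20.0.422), cutadapt (1.15) and Trim Galore (0.6.0), and edgeR is named too; annotation release, strand setting and handling of reads with several matches were not given in the sources used here. A directional (dUTP) library kit was used, per the labels' protocols. Symbols, positions and exon lengths came from GENCODE vM21 on GRCm38 (54587 of 55335 IDs matched with version, 55154 without).

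Genes kept by filterByExpr (19479) were scaled with TMM factors and fitted with edgeR 4.0.16 (R 4.3.3; quasi-likelihood, robust, 1 coefficient per group, all 16 libraries). The 6 pairwise contrasts were 2-sided, with Benjamini-Hochberg adjustment over all genes and a threshold of 0.05. The SE is the log2 fold change divided by the square root of F. Alternatives were DESeq2 1.42.0, limma 3.58.1 (voom), other factors, no filter, fewer libraries, a replicate block and leaving out each library. Permutation tests used scipy 1.17.1, plots matplotlib 3.10.9. Besides the 10 genes, up to 4 genes with the smallest p were named per list and comparison, and 2 genes most like each of 3 members. A gene that this rule names is not reported here. The genes and lists were chosen with earlier results of these data known.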

Additional observations from a re-analysis of the deposited data

Results flagged for a closer look

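Camk2n1 with the unmutated hairpin had a library apart from the others: replicate 1 was at 238 CPM and the others at 246 to 247 CPM, and the gap to the nearest library was 0.921 of the group's range, above Dixon's 95% critical value. It was the only 1 of 44 groups of 4 libraries examined (10 genes and the Camk2a to Camk2b ratio, in 4 groups each), where chance gives about 1 in 20.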

How the results depend on the processing

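The number of the 10 genes called was 8, 8, 8, 10, 9 and 8 (unmutated, 2-mutation and 5-mutation hairpins against empty vector, then unmutated against 2-mutation, unmutated against 5-mutation and 2-mutation against 5-mutation). Without 1 library at a time it was 8, 8, 6 to 8, 10, 8 to 9 and 7 to 9, and under the 8 other settings 8, 8 to 9, 7 to 8, 10, 9 and 7 to 9. Of 1440 refitted values of single genes, 1408 kept their direction and their side of the threshold, 23 lost a call and 9 gained one. The changes were in 6 gene and comparison pairs, and no call changed direction. The Camk2a to Camk2b log2 ratio differed by −0.62 to −0.52 (2-mutation against empty vector), −0.53 to −0.44 (5-mutation against empty vector), 0.36 to 0.45 (unmutated against 2-mutation) and 0.28 to 0.36 (unmutated against 5-mutation) without 1 library at a time; 3 against 4 libraries cannot pass the permutation test. For the pairs that did not pass it ran from −0.21 to −0.11 (unmutated against empty vector) and −0.11 to −0.06 (2-mutation against 5-mutation). The labels do not say that equal replicate numbers mark a shared culture. Correlations of same-numbered libraries' deviations ran from −0.02 to 0.27, and 11 of 16 libraries correlated best with their own number, a hint from the data only. With the replicate block 9 genes passed between the 2-mutation and 5-mutation hairpins, and the other 5 counts of the 10 genes were unchanged. For the Camk2a to Camk2b ratio, a replicate block chosen after seeing the data gave the same log2 differences (−0.16, −0.56, −0.48, 0.40, 0.32 and −0.08), with the same direction in 4 of 4 same-numbered pairs in each of the 6 comparisons, the unmutated hairpin against empty vector and the 2 mutated hairpins included. The 2-sided exact sign-flip permutation test gave p = 0.125 each time, the smallest that 4 pairs allow, so no comparison can pass it.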
